A study of Mus musculus with 2 samples.

Results

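The guanylate-binding protein genes of the mouse were examined in liver RNA from mice that had received an adenovirus. The members are the features whose GENCODE symbol is Gbp2, Gbp2b, Gbp3, Gbp4, Gbp5, Gbp6, Gbp7, Gbp8, Gbp9 or Gbp10, which are 10 of the 47442 features in the deposited tables, and all 10 were matched by Ensembl identifier. The study set 1 RNA sequencing library from livers given a virus carrying GBP5 against 1 library from livers given a virus carrying β-galactosidase (β-Gal, a bacterial enzyme used as a control). Mice of both groups were labelled C57BL/6 and 8 to 9 weeks old, and the virus was injected into the tail vein 10 days before the livers were taken. Both groups therefore carried an adenovirus, and no uninfected liver was analysed here. The sex of the mice, the number of livers behind each library and the promoter in the virus are not stated in the labels. The labels' protocols also mention viruses with pieces of GBP5 that end at residue 306 or run from residue 307 to residue 586, which were not analysed here. The coding sequence of mouse Gbp5 holds 590 codons in GENCODE M21, and the labels do not say from which species the GBP5 in the virus came. With 1 library per group there was no replicate and no test. Fold values divide the GBP5 library by the β-Gal library.

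Guanylate-binding proteins are large GTPases of the dynamin superfamily that interferon-gamma, and to a lesser degree type I interferons, induce in many cell types. They bind GTP, assemble into larger coats on the vacuoles and membranes of bacteria and parasites, and in macrophages help to activate inflammasomes. In the mouse the genes lie in a cluster on chromosome 3 and a cluster on chromosome 5, and interferons act on them through transcription factors that bind the gamma-activated sequence (GAS) and the interferon-stimulated response element (ISRE).

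RefSeq promoter windows (GRCm38.p6) were matched for 5 of the 10 members, all on the plus strand of chromosome 3, and are shown because all 5 genes were higher in the GBP5 library. Each window covers the 250 bases before the RefSeq transcript start, which can differ from the GENCODE gene start. The Gbp5 window lies wholly within the GENCODE span of Gbp5. The windows of Gbp2 and Gbp3 run past the GENCODE gene start, and the marked match of Gbp2 lies within its GENCODE span. It lies at chr3:142594597-142594846 for Gbp2b, at chr3:142620413-142620662 for Gbp2, at chr3:142496684-142496933 for Gbp5, at chr3:142530086-142530335 for Gbp7 and at chr3:142559794-142560043 for Gbp3. Capitals mark matches to an ISRE core, searched as TTTCNNTTTC or GAAANNGAAA on the other strand, and to a GAS core, searched as TTCNNNGAA, which reads the same on both strands.
Gbp2b: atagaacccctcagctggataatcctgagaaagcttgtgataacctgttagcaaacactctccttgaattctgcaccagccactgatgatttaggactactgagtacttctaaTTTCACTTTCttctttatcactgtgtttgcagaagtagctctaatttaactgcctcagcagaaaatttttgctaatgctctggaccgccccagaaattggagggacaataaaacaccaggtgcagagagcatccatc
Gbp2: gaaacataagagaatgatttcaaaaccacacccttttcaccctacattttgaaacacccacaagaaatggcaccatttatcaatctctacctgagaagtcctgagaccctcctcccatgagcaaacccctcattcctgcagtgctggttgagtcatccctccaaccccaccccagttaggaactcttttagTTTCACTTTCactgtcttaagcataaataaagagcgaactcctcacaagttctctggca
Gbp5: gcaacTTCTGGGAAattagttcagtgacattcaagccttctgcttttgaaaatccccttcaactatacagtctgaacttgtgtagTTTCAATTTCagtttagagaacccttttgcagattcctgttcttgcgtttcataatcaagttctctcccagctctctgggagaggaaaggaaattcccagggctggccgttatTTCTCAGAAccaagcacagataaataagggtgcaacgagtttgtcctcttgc
Gbp7: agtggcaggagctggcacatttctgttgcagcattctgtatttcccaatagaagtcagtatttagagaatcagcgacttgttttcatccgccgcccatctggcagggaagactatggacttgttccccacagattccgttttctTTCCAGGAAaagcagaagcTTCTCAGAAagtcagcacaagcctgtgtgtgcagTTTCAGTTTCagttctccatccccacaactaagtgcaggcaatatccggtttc
Gbp3: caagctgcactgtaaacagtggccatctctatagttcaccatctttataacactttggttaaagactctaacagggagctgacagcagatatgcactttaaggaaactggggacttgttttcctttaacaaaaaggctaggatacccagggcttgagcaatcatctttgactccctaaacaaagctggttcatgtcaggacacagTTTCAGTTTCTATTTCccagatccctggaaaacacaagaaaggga

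An ISRE core stood in all 5 of these windows, 137 bases before the start in Gbp2b, 59 in Gbp2, 165 in Gbp5 and 53 in Gbp7. Gbp3 had overlapping cores at 45 and 39 bases, and its other annotated start had no match. GAS cores stood in 2 of the 5, at 245 and 52 bases before the start of Gbp5 and at 106 and 87 bases before that of Gbp7. Of the 32851 RefSeq windows of this length, 2.98% held an ISRE core, 7.02% a GAS core and 0.332% both. A match describes these letters only. Gbp4, Gbp6, Gbp8, Gbp9 and Gbp10 had no matched window.

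The coding sequences show how alike the members are. The stretch below codes for the phosphate-binding loop of the GTPase domain (the G1 motif) and what follows it, 48 bases from GENCODE M21 transcripts on GRCm38, and capitals mark bases that differ from the most common base of the 10 members. The first 5 genes lie on the plus strand of chromosome 3 and the others on the minus strand of chromosome 5.
Gbp2b: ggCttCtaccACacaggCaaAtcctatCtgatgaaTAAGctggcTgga
Gbp2: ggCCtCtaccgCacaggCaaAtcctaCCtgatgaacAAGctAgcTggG
Gbp5: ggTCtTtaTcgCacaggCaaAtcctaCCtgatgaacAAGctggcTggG
Gbp7: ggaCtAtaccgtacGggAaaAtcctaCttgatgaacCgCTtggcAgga
Gbp3: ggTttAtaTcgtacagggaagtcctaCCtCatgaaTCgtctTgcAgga
Gbp4: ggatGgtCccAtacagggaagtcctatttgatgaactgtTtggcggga
Gbp8: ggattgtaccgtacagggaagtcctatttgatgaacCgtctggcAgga
Gbp9: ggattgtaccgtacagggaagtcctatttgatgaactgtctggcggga
Gbp6: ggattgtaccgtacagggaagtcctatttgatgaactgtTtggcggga
Gbp10: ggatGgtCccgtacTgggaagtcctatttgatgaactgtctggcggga

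Of the 48 positions, 22 were not identical in all 10 members. The members on chromosome 3 had 10 to 14 differences from the most common base, against 0 to 4 in the members on chromosome 5. Over the aligned coding sequences, identity between members of the chromosome 5 cluster was 89.6% to 98.4% in 10 pairs (median 90.6%), while within the chromosome 3 cluster it was 61.6% to 82.5% in 10 pairs (median 63.0%), and between the clusters it was 60.9% to 75.0% in 25 pairs. The closest pair was Gbp6 and Gbp10, and the closest pair on chromosome 3 was Gbp2 and Gbp2b.

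**Figure D1:**
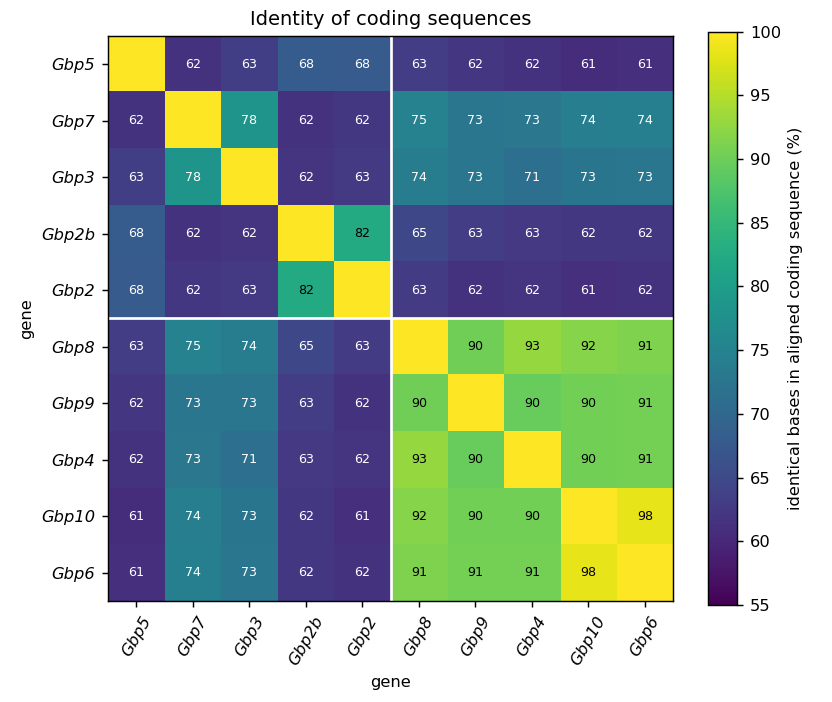
Percentage of identical bases in the aligned coding sequences of each pair of members; rows and columns are the 10 genes in order along chromosome 3 (first 5) and chromosome 5 (last 5), with a white line between the clusters. Pairs within chromosome 5 are all at 89.6% or above, and Gbp6 and Gbp10 reach 98.4%.

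The ends of the coding sequences divide the family in another way. The last 12 coding bases before the stop codon are given for 5 members, with the cysteine codon of a CaaX box, the signal for attachment of a lipid (prenylation), in capitals.
Gbp2b: TGCaccatactt
Gbp2: TGCactatactc
Gbp5: TGTgttataagc
Gbp6: ctaaagcattta
Gbp10: ctaaagcattta

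By translation, Gbp2, Gbp2b and Gbp5 were the 3 members with this cysteine codon and the other 7 had none. All 3 lie on chromosome 3, beside Gbp3 and Gbp7, which lack it.

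The unit of the tables is FPKM, fragments per kilobase of transcript, scaled to library size. The FPKM values of the 10 members came out as whole reads in both libraries, within 0.001 reads, so each value is given with the reads behind it. The library totals behind the FPKM were 17205716 reads for the GBP5 library and 18405429 for the β-Gal library. Members had 847 to 5200 reads in the GBP5 library and 241 to 1205 in the β-Gal library. Intervals are exact 95% intervals of the FPKM ratio (Clopper-Pearson, given the sum of both read numbers). They hold counting error alone: PCR copies of 1 molecule can each give a read, and the spread between livers is not in them. Over 11828 genes at 1 FPKM or more in each library, the median FPKM ratio was 1.45, so ratios are also given after dividing by it ("rescaled").

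Of the 10 members, 9 were at least 2-fold higher in the GBP5 library and none was at least 2-fold lower, by the log2 ratio of FPKM + 1. This held as deposited and after rescaling. The background was 19.2% of 13599 features called higher and 5.56% called lower as deposited, and 7.32% higher and 9.75% lower of 13092 features after rescaling, counting features that reached 1 FPKM in a library. The median log2 ratio of the members was 1.88, or 1.36 rescaled, beside 0.48 and 0.03 for all features. The lower interval limit of the rescaled FPKM ratio was above 2 for 9 members. In the GBP5 library the 10 genes together made up 602 FPKM, 0.0827% of all FPKM, against 152 FPKM and 0.0199% in the β-Gal library. In liver as a whole, more RNA per cell and more cells that carry the RNA cannot be told apart.

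**Figure D2:**
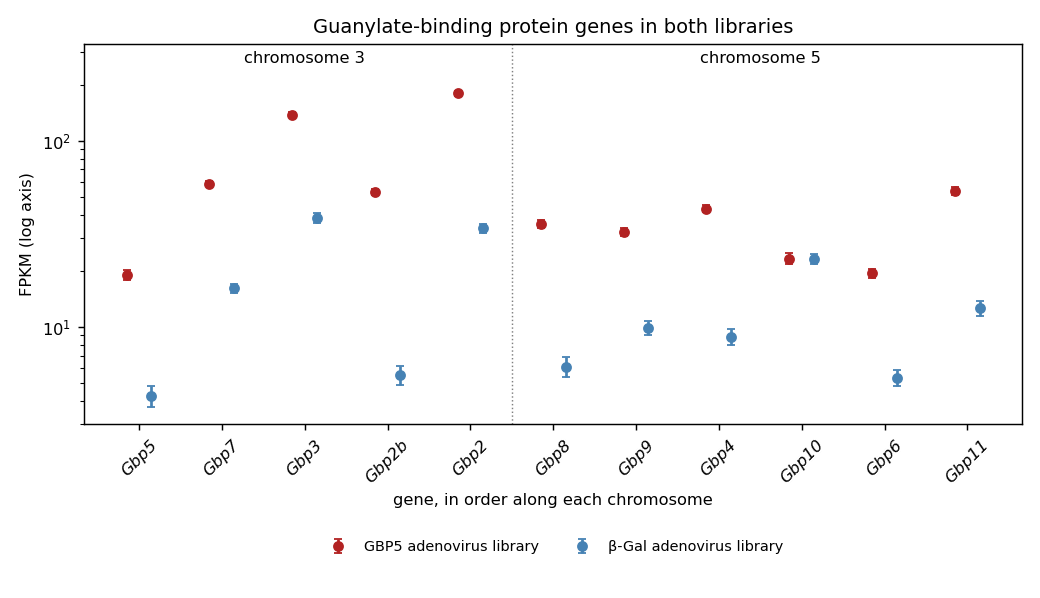
FPKM (log axis) of each family gene in the GBP5 adenovirus library (red, left point) and the β-Gal adenovirus library (blue, right point), with exact 95% Poisson counting intervals; genes run in order along chromosome 3 and chromosome 5, and Gbp11 is a family gene outside the 10 members. The red point is above the blue point for all genes drawn except Gbp10, where both lie near 23.2 FPKM.

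Gbp5 (ENSMUSG00000105504, chromosome 3, 142493978 to 142522344, plus strand) is the gene whose product the virus was named for. It had 19.1 FPKM from 1015 reads in the GBP5 library, against 4.24 FPKM from 241 reads in the β-Gal library. The ratio was 4.51, with an interval of 3.91 to 5.21, and 3.11 rescaled. In both libraries it had the lowest FPKM of the 10 members, and by ratio it ranked 5. Any reads of the virus counted here cannot be told apart from those of the mouse's own gene. Whether there were any is not known, and the labels do not give the species of the GBP5 in the virus. Its product takes part in inflammasome assembly in macrophages.

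Gbp2b (ENSMUSG00000040264, chromosome 3, 142594847 to 142619179, plus strand), the gene once called Gbp1, had the highest ratio of the family. It stood at 53.1 FPKM (2579 reads) in the GBP5 library and 5.50 FPKM (286 reads) in the β-Gal library. Its interval of 8.53 to 10.9 lay above the intervals of all other members, and its log2 ratio of 3.06 was above that of 99.5% of the measured features. The product is one of the prenylated members and is found on the vacuoles of parasites. Gbp2 (ENSMUSG00000028270, 142620602 to 142638008, plus strand), its nearest relative, was the most abundant member in the GBP5 library, at 179 FPKM (5200 reads), against 33.8 FPKM (1047 reads) in the β-Gal library. The ratio of 5.31 had an interval of 4.97 to 5.68. GBP2 is needed in mouse cells for the control of Toxoplasma.

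Gbp3 and Gbp7, the members of chromosome 3 without a CaaX box, had lower ratios than Gbp2 and Gbp2b, with intervals that did not meet theirs. Gbp3 (ENSMUSG00000028268, 142560026 to 142573209, plus strand) stood at 138 FPKM (3623 reads) in the GBP5 library and 38.5 FPKM (1081 reads) in the β-Gal library, a ratio of 3.59 (interval 3.35 to 3.84). Gbp7 (ENSMUSG00000040253, 142530342 to 142550149, plus strand), whose product helps to bring the machinery for oxidant production and autophagy to bacteria in mice, stood at 58.8 FPKM (4104 reads) in the GBP5 library and 16.1 FPKM (1205 reads) in the β-Gal library. Its ratio of 3.64 (interval 3.42 to 3.89) did not differ from that of Gbp3 beyond counting error.

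On chromosome 5, in the order of the annotation, Gbp8 (ENSMUSG00000034438, 105014150 to 105139540, minus strand) had 35.7 FPKM (1434 reads) in the GBP5 library and 6.12 FPKM (263 reads) in the β-Gal library. Its ratio of 5.83 (interval 5.11 to 6.68) was the highest of the cluster and the second of the family. The interval overlapped that of Gbp2 (4.97 to 5.68). By log2 ratio of FPKM + 1, Gbp2 was ahead of Gbp8, at 2.375 against 2.366. Gbp9 (ENSMUSG00000029298, 105077630 to 105139539) had 32.4 FPKM (1768 reads) in the GBP5 library and 9.89 FPKM (577 reads) in the β-Gal library, with the lowest ratio among the 9 higher members, 3.28 (interval 2.98 to 3.61). Gbp4 (ENSMUSG00000079363, 105115767 to 105139586) had 43.2 FPKM (1786 reads) in the GBP5 library and 8.86 FPKM (392 reads) in the β-Gal library, a ratio of 4.87 (interval 4.37 to 5.45). The intervals of Gbp4 and Gbp8 overlapped, and that of Gbp9 lay below both. The annotated spans of these 3 genes overlap: 61 exon bases of Gbp8 and of Gbp4 and 60 of Gbp9 are also exon of another member, which is 1.77%, 0.814% and 1.16% of their exon bases. Summed, the 3 genes had 4988 reads in the GBP5 library and 1232 in the β-Gal library, a ratio of 4.33 (interval 4.07 to 4.61). GBP4 is known in mouse cells as a negative regulator of type I interferon induction.

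Gbp6 (ENSMUSG00000104713, 105270702 to 105293698, minus strand) had 19.4 FPKM (1226 reads) in the GBP5 library and 5.33 FPKM (360 reads) in the β-Gal library, a ratio of 3.64 (interval 3.24 to 4.11). Gbp10 (ENSMUSG00000105096, 105215699 to 105239533, minus strand), its closest relative, had 23.3 FPKM (847 reads) in the GBP5 library and 23.2 FPKM (904 reads) in the β-Gal library. The Gbp10 ratio of 1.00 (interval 0.912 to 1.10) was the lowest of the family, at log2 0.00 as deposited and -0.50 after rescaling. It was above the log2 ratio of 22.6% of the measured features, whereas the other 9 members lay above 94.8% or more. Within the GBP5 library Gbp10 had 1.20 times the FPKM of Gbp6, and within the β-Gal library 4.36 times. By FPKM, Gbp10 ranked 8 of 10 members in the GBP5 library and 3 of 10 in the β-Gal library.

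**Figure D3:**
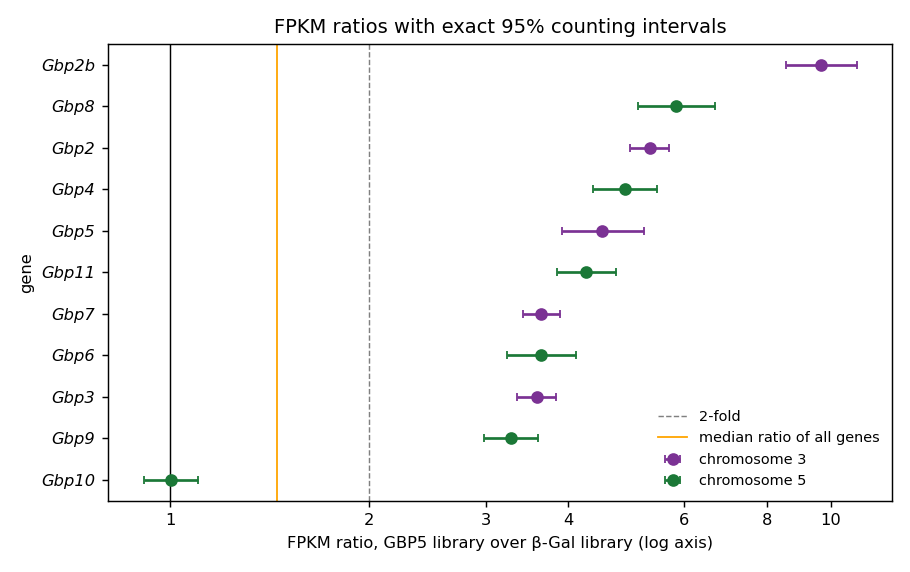
FPKM ratio of the GBP5 library over the β-Gal library (log axis) for each family gene, sorted, with exact 95% counting intervals; colours give the chromosome, the orange line is the median ratio of all genes (1.45) and the dashed line 2-fold. Gbp2b stands highest at 9.65, Gbp10 lies on 1, and the others lie between 3.28 and 5.83.

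The reads of Gbp6 and Gbp10 are the least certain of the family. Of all 50-base stretches in the coding transcript of Gbp10, 17.5% are found in no other gene of GENCODE M21, and 9.82% of those of Gbp6. With 100-base stretches the shares are 29.1% and 17.1%. Gbp10 shared 70.6% of its 50-base stretches with Gbp6, and 79.2% with Gm43302, a predicted coding gene on the same strand. The exons of Gm43302 cover 46.3% of the exon bases of Gbp10 and 29.0% of those of Gbp6, yet it was listed at 0.0135 FPKM in the GBP5 library and 0 in the β-Gal library. The labels do not say how reads with several matches, or in exons of several genes, were treated, and their part in the Gbp10 and Gbp6 values was not tested. Summed, Gbp6 and Gbp10 had 2073 reads in the GBP5 library and 1264 in the β-Gal library, a ratio of 1.75 (interval 1.64 to 1.88). By summed FPKM the pair had 42.7 in the GBP5 library and 28.5 in the β-Gal library, a log2 ratio of FPKM + 1 of 0.56. Taken as 1 gene the pair did not reach 2-fold, and 8 of 9 units of the family did.

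The other 8 members are easier to tell apart. At 50 bases, 99.1% of the stretches of Gbp5, 98.2% of Gbp2b, 97.9% of Gbp2 and 95.2% of Gbp3 were unique, followed by 90.4% of Gbp9, 87.2% of Gbp4, 87.2% of Gbp7 and 78.8% of Gbp8. For Gbp7 the main partner was Gm43802, a processed pseudogene that lies within its exons, was listed at 0 in both libraries and holds 10.6% of its stretches. At 100 bases, all stretches of Gbp5, Gbp2 and Gbp2b were unique, and those of the remaining 5 were unique in 89.8% to 99.1% of cases. Of the 3 members with the highest ratios, Gbp8 was the least unique, at 78.8% for 50 bases and 96.2% for 100 bases. The part of shared stretches in these ratios was not tested.

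**Figure D4:**
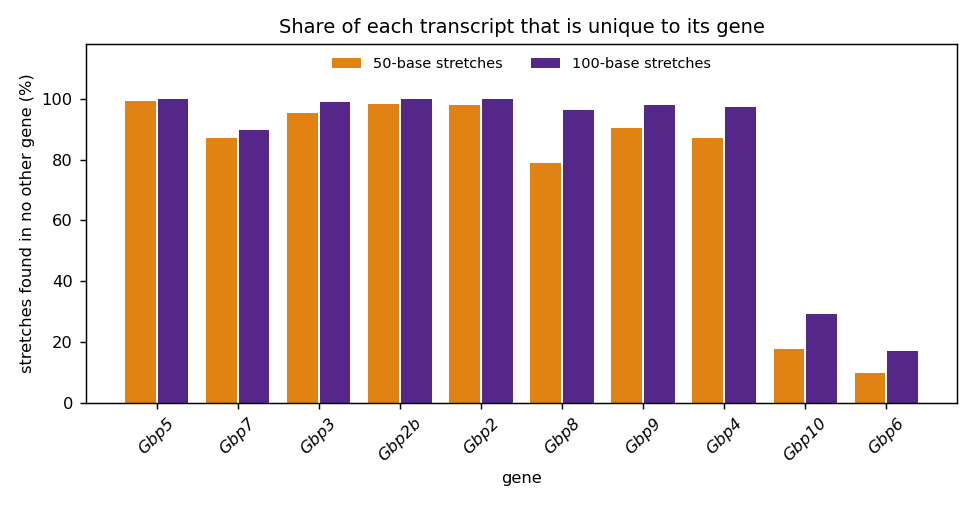
Share of the 50-base (orange) and 100-base (purple) stretches of each member's coding transcript that occur in no other gene of GENCODE M21, on an axis from 0 to 100%. Gbp10 and Gbp6 are at 17.5% and 9.82% for 50 bases, and all other members at 78.8% or more.

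Compared by cluster, all 5 members on chromosome 3 and 4 of 5 on chromosome 5 were at least 2-fold higher, as deposited and after rescaling. The median log2 ratio was 1.94 on chromosome 3 (1.44 rescaled) and 1.69 on chromosome 5 (1.19 rescaled). The range of FPKM ratios was 3.59 to 9.65 on chromosome 3 and 1.00 to 5.83 on chromosome 5. By summed reads, chromosome 3 had 16521 in the GBP5 library and 3860 in the β-Gal library, a ratio of 4.58 (interval 4.42 to 4.74), and chromosome 5 had 7061 in the GBP5 library and 2496 in the β-Gal library, a ratio of 3.03 (interval 2.89 to 3.17). Without Gbp10 the chromosome 5 sum had a ratio of 4.18 (interval 3.95 to 4.41) and a median log2 ratio of 1.93. Gbp10 had the lowest ratio of the cluster, so leaving it out raises the ratio of the chromosome 5 sum by construction. The smaller distance between the cluster sums without Gbp10 is therefore no result about the clusters. Gbp6, whose reads are also uncertain, was kept in that sum. The ratios of single members overlapped between the clusters. Chromosome 3 genes made up 74.4% of the family's FPKM in the GBP5 library and 64.8% in the β-Gal library.

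The 3 members with a CaaX cysteine codon had FPKM ratios of 4.51 to 9.65 and a median log2 ratio of 2.38, beside 1.80 for the 7 without it, whose ratios ran up to 5.83. Their summed reads were 8794 in the GBP5 library and 1574 in the β-Gal library, a ratio of 5.98 (interval 5.66 to 6.31), against 3.31 (interval 3.20 to 3.42) for the other 7. Those 7 include Gbp10, at a ratio of 1.00, and were not summed without it. Gbp8 and Gbp4, which lack the codon, had ratios above that of Gbp5, so the groups overlap.

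The order of the levels changed between the libraries. In the GBP5 library the order by FPKM was Gbp2, Gbp3, Gbp7, Gbp2b, Gbp4, Gbp8, Gbp9, Gbp10, Gbp6 and Gbp5, where Gbp8 and Gbp9, and Gbp6 and Gbp5, had overlapping counting intervals. In the β-Gal library it was Gbp3, Gbp2, Gbp10, Gbp7, Gbp9, Gbp4, Gbp8, Gbp2b, Gbp6 and Gbp5, and the intervals of Gbp9 and Gbp4 and of the neighbours from Gbp8 down to Gbp5 overlapped. The top was 9.40 times the bottom in the GBP5 library and 9.08 times in the β-Gal library, but with the lengths of coding transcripts it was 8.61 times in the GBP5 library and 5.28 times in the β-Gal library. Gbp10 and Gbp2b differed most in rank, Gbp10 at place 8 in the GBP5 library and 3 in the β-Gal library, and Gbp2b at place 4 in the GBP5 library and 8 in the β-Gal library. As a share of the family's FPKM, Gbp2 held 29.8% in the GBP5 library and 22.3% in the β-Gal library, Gbp2b held 8.82% in the GBP5 library and 3.63% in the β-Gal library, and Gbp10 held 3.86% in the GBP5 library and 15.3% in the β-Gal library.

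FPKM levels depend on the length divided by, and the length behind each member's value was the mean over all of its annotated isoforms, rounded, as the whole reads show. For Gbp3 that length was 1527 bases over 7 isoforms, against 2682 for its coding transcript. For Gbp6 it was 3673 bases against 2604, for Gbp10 2116 against 3528 and for Gbp4 2404 against 4538. Recomputed with coding transcript lengths, a choice made after the values were seen, Gbp2 and Gbp3 were at 120 and 78.5 FPKM in the GBP5 library and at 22.6 and 21.9 FPKM in the β-Gal library, so that Gbp2 and not Gbp3 was first in the β-Gal library, with overlapping intervals. Gbp10 became the lowest member of the GBP5 library, at 14.0 FPKM, and Gbp5 ranked 9 there, at 19.3 FPKM. On this length the FPKM of Gbp10 was 0.510 times that of Gbp6 in the GBP5 library, where the deposited values give 1.20, and 1.85 times in the β-Gal library. Ratios between libraries do not depend on this length.

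**Figure D5:**
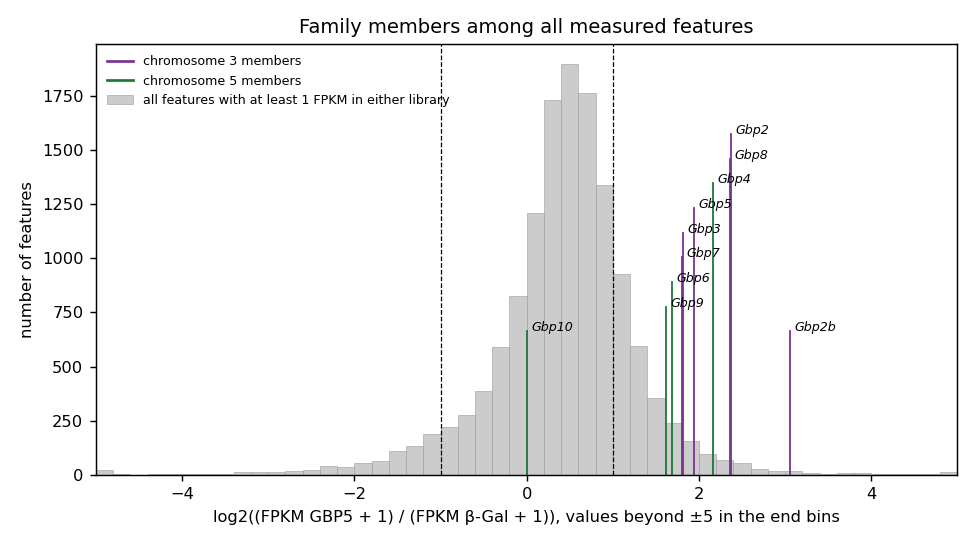
Histogram of log2((FPKM GBP5 + 1)/(FPKM β-Gal + 1)) over the 13599 features that reached 1 FPKM in a library (grey bars, number of features), with a vertical line for each member coloured by chromosome and dashed lines at 2-fold; line heights only separate the labels. Of the members, 9 lie right of the dashed line at 1 (log2 ratios 1.62 to 3.06), and Gbp10 lies at 0.00.

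Rows of the family outside the 10 members were Gbp11 and Gbp2-ps. Gbp11 (chromosome 5, 105323042 to 105346472, minus strand), annotated as a polymorphic pseudogene, had 53.6 FPKM (1854 reads) in the GBP5 library and 12.6 FPKM (466 reads) in the β-Gal library, a ratio of 4.26 (interval 3.84 to 4.72). Gbp2-ps, an unprocessed pseudogene on chromosome 3, was listed at 0 in both libraries.

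Genes beside the clusters had lower log2 ratios of FPKM + 1 than most members. Of the 5 nearest protein-coding genes on each side of each cluster, 15 of 20 were measured, 4 were at least 2-fold higher, beside the 19.2% of all features, and none was lower. Rescaled, 0 passed 2-fold in either direction. Their median log2 ratio was 0.63, or 0.22 rescaled. The nearest on chromosome 3, Kyat3, an enzyme of amino acid transamination 32.0 kb from the cluster, had 34.0 FPKM in the GBP5 library and 41.4 FPKM in the β-Gal library. The nearest on chromosome 5, Abcg3, a transporter of the ABC family 31.4 kb away, had 7.11 FPKM in the GBP5 library and 3.52 FPKM in the β-Gal library. The highest log2 ratios were those of Lmo4 (1.10), Lrrc8c (1.07), Lrrc8b (1.06) and Pdlim5 (1.05), all below that of every member but Gbp10. By plain FPKM ratio Lrrc8b, a channel subunit gene at 1.97 FPKM in the GBP5 library and 0.420 FPKM in the β-Gal library, stood at 4.69 (interval 3.46 to 6.47), within the range of the members. The other measured neighbours were Zfp326 (0.91), Hs2st1 (0.69), Gtf2b (0.63), Zfp951 (0.61), Pkn2 (0.51), BC005561 (0.24), Lrrc8d (0.20), Pkd2 (0.03) and Spp1 (-0.26). Bmpr1b, Unc5c, Pdha2, Stpg2 and Barhl2 were under 1 FPKM in both libraries.

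Genes of the interferon pathway and its regulators were higher in part. The list of 25 measured genes held an interferon ligand, receptors, kinases, transcription factors and genes of nucleic acid sensing. It also held inhibitors of the pathway, Il18 and an interleukin receptor gene. Of the 25, 9 were at least 2-fold higher and 0 lower, with the inhibitor Socs1 and the interleukin receptor gene among the 9. After rescaling these counts were 6 and 0. The median log2 ratio was 0.79 (0.31 rescaled). Over all features, 19.2% were called higher and 5.56% lower as deposited, and 7.32% and 9.75% after rescaling. Ifng, the gene of interferon-gamma, had 3.27 FPKM in the GBP5 library and 0.360 FPKM in the β-Gal library, from 68 and 8 reads, a ratio of 9.09 with a wide interval of 4.36 to 21.9. Irf1, which binds ISRE elements and is needed for Gbp induction by interferon-gamma in mice, had 115 FPKM in the GBP5 library and 55.2 FPKM in the β-Gal library, a ratio of 2.08 (interval 1.93 to 2.23) and a log2 ratio of 0.51 after rescaling. Irf8, a related factor of myeloid cells, was at 97.6 FPKM in the GBP5 library and 30.9 FPKM in the β-Gal library. The highest log2 ratios of the list were those of Socs1, an inhibitor of the pathway (2.16), and Batf2, a factor that interferon induces (1.99). The lowest were those of Socs3 (-0.47), another inhibitor, and Irf2 (-0.28), which opposes Irf1 at its sites, followed by Il18 (0.13), Ifnar2 (0.32) and Ifnar1 (0.40).

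Genes whose products act with guanylate-binding proteins were nearer to the bulk of the genes. Of 31 measured, 10 passed 2-fold upwards and 0 downwards as deposited, but 0 were higher and 1 lower once rescaled. The median log2 ratio was 0.59 (0.07 rescaled). Of all features, 19.2% were called higher as deposited and 7.32% after rescaling. Casp1, the caspase that matures interleukin-1, was 3.07-fold higher in the GBP5 library (interval 2.60 to 3.64). Casp4, which encodes mouse caspase-11, the sensor of bacterial lipopolysaccharide, was at 12.3 FPKM in the GBP5 library and 5.26 FPKM in the β-Gal library. Gsdmd, the gene of the pore-former of pyroptosis, stood at 47.7 FPKM in the GBP5 library and 23.9 FPKM in the β-Gal library, a log2 ratio of 0.97 (interval of the FPKM ratio 1.83 to 2.18). Aim2, the DNA sensor whose activation by Francisella depends on guanylate-binding proteins in mice, was at 9.73 FPKM in the GBP5 library and 3.96 FPKM in the β-Gal library. Nlrp3, the inflammasome sensor that GBP5 helps to assemble, was at 3.78 FPKM in the GBP5 library and 0.906 FPKM in the β-Gal library. Rnf213, Cyba and Cybb, the last 2 subunits of the phagocyte oxidase, had log2 ratios of 1.45, 1.43 and 1.19. The 5 lowest log2 ratios were -0.51 for Atg3, -0.41 for Gabarapl1, -0.27 for Atg5 and -0.22 for Gabarapl2, all genes of autophagy, and -0.20 for the kinase gene Pim1. Among other autophagy genes of the list, Map1lc3b was at -0.18, and Atg7 (0.59), Map1lc3a (0.40), Gabarap (0.31) and Atg16l1 (0.15) had positive log2 ratios. Rescaled, Atg7 was at 0.07, while Map1lc3b (-0.70), Map1lc3a (-0.12), Gabarap (-0.22) and Atg16l1 (-0.35) were negative. Atg3 was the gene that was 2-fold lower after rescaling, at -1.02.

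Markers of several cell types that could hold these transcripts also differed between the libraries. The counts below stand beside 19.2% of all features called higher and 5.56% lower, or 7.32% and 9.75% after rescaling. Hepatocyte markers were present in both libraries, at a sum of 50297 FPKM in the GBP5 library and 86607 FPKM in the β-Gal library for 5 genes, of which 3 were at least 2-fold lower (5 after rescaling). The 11 T and NK cell markers summed to 121 FPKM in the GBP5 library and 37.1 FPKM in the β-Gal library, and 8 of the 10 that were measured passed 2-fold upwards (4 after rescaling). The 9 macrophage and Kupffer cell markers summed to 735 FPKM in the GBP5 library and 591 FPKM in the β-Gal library, with 2 of 8 measured higher and 1 lower, and 0 higher and 2 lower after rescaling. Cd5l had the largest rise, at 345 FPKM in the GBP5 library and 191 FPKM in the β-Gal library. Lyz2 (174 and 262 FPKM), Vsig4 (2.71 and 11.1 FPKM) and Clec4f (37.8 and 40.6 FPKM) were lower in the GBP5 library, given first. The 5 dendritic cell markers summed to 37.9 FPKM in the GBP5 library and 9.47 FPKM in the β-Gal library, and the 6 endothelial markers to 131 FPKM in the GBP5 library and 111 FPKM in the β-Gal library. The 5 neutrophil markers summed to 181 FPKM in the GBP5 library and 1696 FPKM in the β-Gal library, and the 4 B cell markers to 2.22 FPKM in the GBP5 library and 3.89 FPKM in the β-Gal library. Bile duct markers (4 genes) summed to 5.08 FPKM in the GBP5 library and 9.61 FPKM in the β-Gal library. Most of that difference was in Krt19, at 0.710 FPKM (12 reads) in the GBP5 library and 4.76 FPKM (86 reads) in the β-Gal library. Sox9 went the other way, at 2.19 FPKM in the GBP5 library and 1.88 FPKM in the β-Gal library. Stellate cell markers (5 genes) summed to 43.1 FPKM in the GBP5 library and 22.4 FPKM in the β-Gal library. Most of the stellate difference was in Col1a1, a collagen gene, at 23.7 FPKM in the GBP5 library and 5.64 FPKM in the β-Gal library, while Lrat was at 3.64 FPKM in the GBP5 library and 4.10 FPKM in the β-Gal library. None of the markers of these types was at 0 in either library. The 5 pancreas markers summed to 13.9 FPKM in the GBP5 library, where 2 of them were at 0, and 382 FPKM in the β-Gal library. The part of these differences in the values of the family was not tested.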

How the data were processed

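Liver RNA of 2 libraries, 1 per group, was analysed from the FPKM values the authors deposited. The submitters' processing notes name TopHat2 (aligner), HTSeq 0.6.1 (read counting) and the assembly GRCm38. Neither they nor the labels give the annotation, whether strand was used, how multiply mapped reads were handled, or how FPKM was computed. Symbols, positions and exons came from GENCODE M21 by Ensembl identifier, and 868 of 47442 features were not matched.

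In genes with 1 isoform the FPKM were whole multiples of a step, which gave each library's total. Reads were FPKM times length times total, with the rounded mean length of all annotated isoforms. Of values above 0, 72.7% in the GBP5 library and 71.9% in the β-Gal library were whole within 0.001 reads, and all members were. For listed genes that were not, reads came from the ratio of both values in lowest terms, where a single multiple fitted the annotated lengths.

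The size rule was a log2 ratio of FPKM + 1 of at least 1 or at most -1, with at least 1 FPKM in either library. Each member was given, with Gbp11, Gbp pseudogenes, neighbours and up to 10 genes per list (the 5 highest and 5 lowest), besides a few interferon and inflammasome genes named whatever their values. A few autophagy genes and markers were named after their values were seen. One listed gene is not reported here. The members and lists were chosen with earlier results of these data known. Coding sequences, of the coding transcript with the longest coding part, were aligned globally (Biopython 1.88), and stretches of 50 and 100 bases were searched for exact matches in all GENCODE M21 transcripts on both strands. The recovery of reads and the size rule were run on simulated reads with counting noise only. Those reads were built with the same lengths and library totals. The run therefore checks the code, and not the annotation or the spread between livers. As alternatives, the pseudocount was set to 0.1 or 5 FPKM, the filter to 0 or 5 FPKM, the scaling to the median ratio or to equal sums (with and without the 50 most abundant genes), and the set to coding genes. Coding transcript lengths, and Gbp6 and Gbp10 as 1 gene, were added after the values were seen. The chromosome 5 sum without Gbp10 was not among the planned results. Python 3.11.15 with numpy 2.4.6, pandas 2.3.3 and scipy 1.17.1 was used.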

Additional observations from a re-analysis of the deposited data

How the results depend on the processing

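With 1 library per group, nothing here measures the spread between livers, and the depth of 17205716 and 18405429 reads sets only the counting intervals. No paired analysis was possible because each group had 1 library. Under the other pseudocounts, filters and scalings, 9 of 10 members passed 2-fold upwards and 0 downwards (8 of 9 with Gbp6 and Gbp10 as 1 gene), with log2 ratios of 1.10 to 3.25; Gbp10 ran from -0.50 to 0.06. The median log2 ratio of the members was 1.66 with a pseudocount of 5 FPKM and 1.36 rescaled by the median ratio. On chromosome 3 it was 2.15 with 0.1 FPKM, 1.72 with 5 FPKM, 1.44 rescaled by the median ratio, 2.05 with equal sums and 1.80 with equal sums without the 50 most abundant genes. On chromosome 5 it was 1.33 with 5 FPKM, 1.19 rescaled by the median ratio and 1.89 with Gbp6 and Gbp10 as 1 gene. Features at least 2-fold higher numbered 1101 with 5 FPKM and 958 rescaled by the median ratio, against 2605, and those lower 435 and 1276, against 756. Among genes acting with the family, 4 were higher with 5 FPKM, 6 with equal sums without the top 50 and 0 rescaled by the median ratio, against 10. Among upstream genes, 5 were higher with 5 FPKM, against 9. Among neighbours, 0 were higher with 5 FPKM, 0 with equal sums without the top 50 and 0 rescaled by the median ratio, against 4. A larger pseudocount draws every ratio towards 1 by construction.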

Other observations

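Other members of the dynamin superfamily and its relatives, Mx1 apart, had lower ratios than most guanylate-binding protein genes. Of 14 measured genes of atlastins, Mx proteins, dynamins, mitofusins, EHD proteins and the very large GTPase Gvin1, 2 were at least 2-fold higher and 0 lower as deposited; rescaled, 2 were higher and 1 lower. The median log2 ratio was 0.52 (0.00 rescaled). Of all features, 19.2% were called higher as deposited and 7.32% after rescaling. The higher pair was Mx1, an antiviral GTPase that type I interferon induces, at 10.1 FPKM in the GBP5 library and 1.92 FPKM in the β-Gal library, and Ehd4, a membrane-remodelling ATPase of endosomes, at 58.4 FPKM in the GBP5 library and 19.3 FPKM in the β-Gal library. By plain FPKM ratio Mx1 stood at 5.29 (interval 4.19 to 6.74), within the range of the members. Mx2 had 4.10 FPKM in the GBP5 library and 4.28 FPKM in the β-Gal library. The gene that was lower after rescaling was Ehd3, at a log2 ratio of -1.32. The mitochondrial fusion genes Mfn1 and Mfn2 had log2 ratios of 0.16 and -0.04.

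The immunity-related GTPases, which act with guanylate-binding proteins on vacuoles in mice, had 11 of 13 measured genes at least 2-fold higher and 0 lower. Rescaled, 6 were higher and 0 lower. Their median log2 ratio was 1.45 (0.92 rescaled), beside 1.88 (1.36 rescaled) for the 10 members. Of all features, 19.2% were called higher as deposited and 7.32% after rescaling. Tgtp2 had 125 FPKM in the GBP5 library and 13.2 FPKM in the β-Gal library, and Gm12250 had 123 FPKM in the GBP5 library and 20.5 FPKM in the β-Gal library. Gm4841 had a log2 ratio of 2.90, and the lowest log2 ratios were 0.17 for Gm4951 and 0.80 for Iigp1. Among 4356 protein-coding genes with a mean FPKM within 2-fold of that of Gbp5, those nearest to it in log2 ratio were Nusap1 (1.94), Akr1b10 (1.94) and Foxm1 (1.94), a likeness over 2 libraries only.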
